A study of Mus musculus with 4 samples.

Results

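The 10 genes described here are products of fat cells: the lipid-droplet and lipid-handling genes Plin1, Cidea, Cidec, Fabp4, Scd1 and Adig, and the secreted factors Adipoq, Retn, Cfd and Lep. They were chosen by name as adipocyte genes and adipokines, with earlier results of these data known. Counts of members below therefore describe these genes and do not test them. Each was found on the array through the RefSeq accession that its probe targets, so 10 of the 20832 genes named on the array were members. Where a gene had several probes, the probe with the highest mean signal represented it.

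RNA of the entire colon was measured in STAP-2-/- mice, which lack the signal-transducing adaptor protein STAP-2, and in wild-type (WT) mice. Both groups were C57BL/6J mice of 14 weeks given dextran sulfate sodium (DSS) at 1.75% in their drinking water, which damages the lining of the colon and so inflames it. The labels give 3 days of DSS in one field and 7 days in another, and no group without DSS was analysed here, so every difference below is between DSS-treated colons. Each sample was a pool of 3 mice on a 1-colour Agilent array, with 2 pools per genotype that the labels number 1 and 2 and call biological replicates. The p-values therefore measure the spread between these pools and not between single mice.

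White adipocytes store triglyceride in a single large lipid droplet and secrete hormones, the adipokines, into the blood. A colon taken whole carries fat cells mainly in the mesenteric fat attached to its outer surface, next to the mesothelium that covers it. In bulk RNA of this kind, fewer fat cells and less RNA per fat cell cannot be told apart.

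Levels are given as log2 of the spot's signal relative to the 75th percentile of its array, so that 0 is the 75th percentile and 1 unit is a doubling of signal. Levels of different probes are not comparable with each other. The 75th percentile of the signal was 2280.0 and 2348.2 on the STAP-2-/- arrays and 2134.3 and 2214.6 on the WT arrays, and between 68.4% and 70.5% of spots lay well above background. The probe of Stap2, the deleted gene, was not well above background in STAP-2-/- colons and stood at 2.92 and 2.98 in WT colons, so it was at least 720.9-fold lower in STAP-2-/- colons (limma adjusted p = 0.314). For this bound, each STAP-2-/- array counts at its detection limit (the faintest spot it calls well above background) or at the probe's own signal, whichever is higher. Over 25624 probes, the SD of the log2 differences was 0.334 for STAP-2-/- 1 minus WT 1 and 0.361 for STAP-2-/- 2 minus WT 2. It was 0.603 for STAP-2-/- 1 minus STAP-2-/- 2 and 0.405 for WT 1 minus WT 2, so arrays of equal number lay closer together than arrays of equal genotype. The arrays numbered 1 held positions 2 (STAP-2-/-) and 1 (WT) of the slide and those numbered 2 held positions 4 (STAP-2-/-) and 3 (WT), so pool number and slide position cannot be told apart. Within each number the WT array held the lower position, so genotype was tied to position as well.

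Fat-cell transcripts were detected on every array. Of the 10 genes, 9 were well above background on all 4 arrays, and Lep was so on 3 of them. Adipoq, Plin1, Cidec, Retn, Cfd and Fabp4, which mark adipocytes, were among the 9. Fabp4 and Cfd are also made by macrophages and Fabp4 by capillary endothelium, and Scd1 is made by many lipid-synthesising cells, so these are less specific to fat.

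The promoters of 4 members are shown for their sequence. They include every member window that held a match to a motif below, and Plin1 as a window without a match. Other windows without a match are not shown. Each is read 5′ to 3′ on the gene's own strand from RefSeq (assembly GRCm38.p6), from 250 bases before to 50 bases after the annotated start. Capitals mark matches to AGGTCA (the hexamer bound by nuclear receptors such as PPARG with RXR), TTGCGCAA (a palindrome bound by C/EBP factors), CCAAT (the CCAAT box), TATAAA (the TATA box) or GGGCGG (the GC box), each searched on both strands. The windows are Adipoq at chr16:23146286-23146585 (plus strand), Plin1 at chr7:79732727-79733026 (minus strand), Adig at chr2:158502362-158502661 (plus strand) and Lep at chr6:29059971-29060270 (plus strand).
Adipoq: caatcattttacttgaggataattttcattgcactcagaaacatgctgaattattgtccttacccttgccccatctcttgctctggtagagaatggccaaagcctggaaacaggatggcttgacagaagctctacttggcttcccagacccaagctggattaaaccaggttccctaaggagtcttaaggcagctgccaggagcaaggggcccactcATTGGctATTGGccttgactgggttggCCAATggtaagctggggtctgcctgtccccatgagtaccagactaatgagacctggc
Plin1: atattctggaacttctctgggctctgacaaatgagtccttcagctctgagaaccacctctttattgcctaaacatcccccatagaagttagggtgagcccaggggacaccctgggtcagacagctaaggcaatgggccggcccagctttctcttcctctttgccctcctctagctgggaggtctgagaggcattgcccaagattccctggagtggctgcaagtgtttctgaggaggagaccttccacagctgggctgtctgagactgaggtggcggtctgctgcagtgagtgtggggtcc
Adig: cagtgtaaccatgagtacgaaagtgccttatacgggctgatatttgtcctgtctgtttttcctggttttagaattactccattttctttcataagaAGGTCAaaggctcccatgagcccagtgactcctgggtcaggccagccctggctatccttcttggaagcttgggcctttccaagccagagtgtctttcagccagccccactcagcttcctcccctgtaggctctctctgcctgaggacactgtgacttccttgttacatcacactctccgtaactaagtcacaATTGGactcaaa
Lep: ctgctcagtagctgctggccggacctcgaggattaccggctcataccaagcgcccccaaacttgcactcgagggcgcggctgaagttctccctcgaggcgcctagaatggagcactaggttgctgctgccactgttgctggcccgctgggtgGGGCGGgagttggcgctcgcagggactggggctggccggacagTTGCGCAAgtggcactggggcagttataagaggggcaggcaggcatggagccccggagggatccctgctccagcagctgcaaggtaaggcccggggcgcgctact

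The Adipoq window held CCAAT at positions -34 to -30 and -27 to -23 on the opposite strand and at -7 to -3 on the gene's strand, where -1 is the base before the start. The Adig window held AGGTCA at positions -154 to -149 and CCAAT, on the opposite strand, at 39 to 43. The Lep window held TTGCGCAA at positions -55 to -48 and GGGCGG at -98 to -93. None of the motifs was found in the Plin1 window. Of 32851 promoter windows of 300 bases, 16.3% held AGGTCA, 0.0396% held its direct repeat AGGTCANAGGTCA (found in no window of a member), 0.183% held TTGCGCAA, 37.4% held CCAAT, 13.6% held TATAAA and 35.7% held GGGCGG. Windows were found for 7 of the 10 members (8 windows, with 2 for Cidec), and 5 of the 8 windows held no match. The GC content of the 4 windows shown ran from 49.0% in Adig to 66.0% in Lep, beside a median of 52.7% over all windows. A match describes letters in the window, not a bound site.

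The first comparison asked how the colon of STAP-2-/- mice differed from that of WT mice. Of the 10 adipocyte genes, 9 had a lower mean in STAP-2-/- colons, beside 51.7% of the 15560 genes tested. In 6 of them (Retn, Cidea, Fabp4, Adig, Scd1 and Cfd) both STAP-2-/- arrays lay below both WT arrays, beside 13.3% of genes tested that were lower without overlap, and 0 members were higher without overlap (11.5% of genes tested). The median difference of the members, STAP-2-/- minus WT, was -0.64 on the log2 scale, beside -0.0068 over all genes tested. No member passed the test: limma gave each of the 10 an adjusted p of 1.0, and 0 of the 15560 genes (0%) passed at an adjusted p of 0.05. At an unadjusted p under 0.05, 202 genes were lower (1.30%) and 124 higher (0.797%) in STAP-2-/- colons, and 4 members (Retn, Cidea, Adig and Scd1) were among the lower ones. With 1 array left out, the count without overlap can only stay or rise, so it cannot show how far the 6 rests on single arrays. That count was 10 without WT 2 and 9 without STAP-2-/- 1. The median does move with single arrays, and was -1.05 without WT 2. Without WT 1 the median was -0.37.

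**Figure D1:**
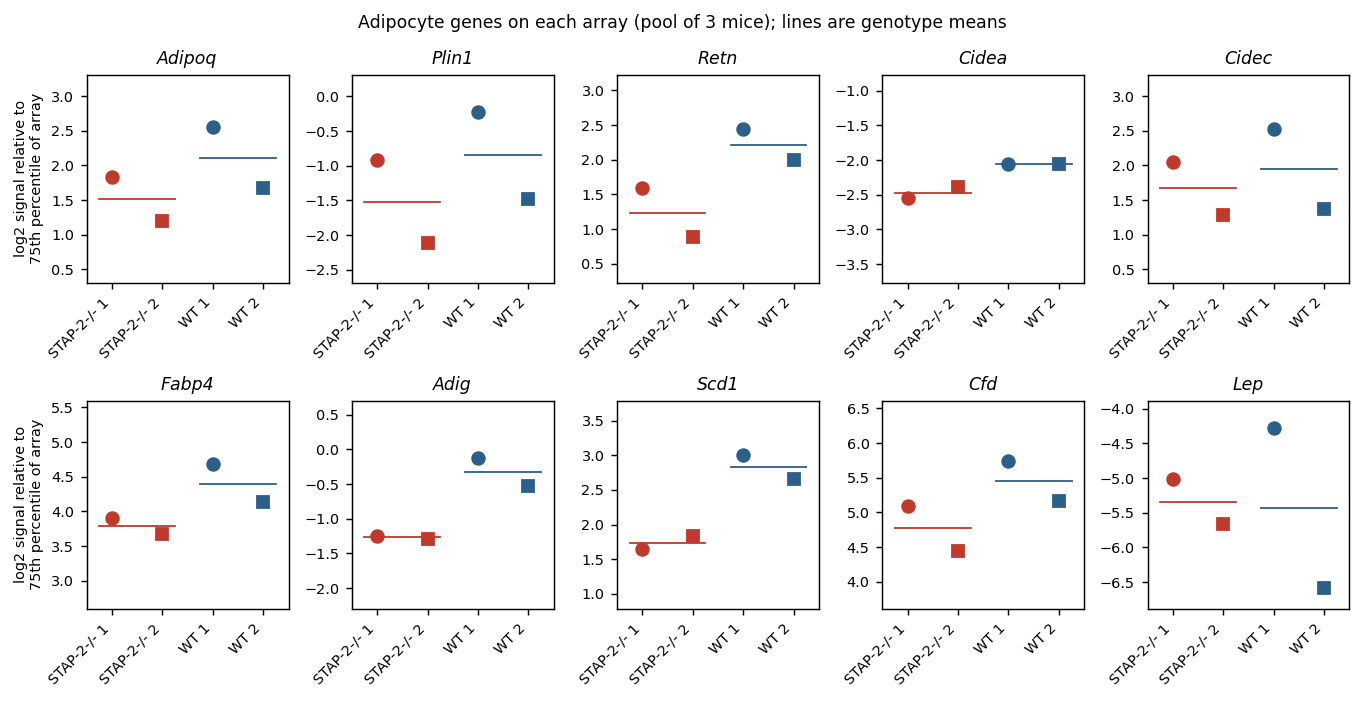
Level of each of the 10 genes on each array (vertical axis, log2 relative to the array's 75th percentile), with STAP-2-/- pools (red) left of WT pools (blue), circles for pools numbered 1, squares for pools numbered 2 and lines for genotype means. WT 1 is the highest array for all 10 genes, and STAP-2-/- 2 is the lowest for 7.

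Scd1 makes stearoyl-CoA desaturase 1, which puts the double bond into saturated fatty acids before they are stored. It stood at 1.65 and 1.83 in STAP-2-/- colons and at 3.01 and 2.66 in WT colons. Both STAP-2-/- arrays lay below both WT arrays, and the gap between genotypes was wider than the spread between pools of a genotype. The difference was -1.10 (SE 0.19, unadjusted p = 0.00474), a level 2.14-fold higher in WT colons, and 0.572% of genes tested had a difference as low or lower. It was -1.36 for the pools numbered 1 and -0.83 for those numbered 2.

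Adig encodes adipogenin, a small membrane protein of fat cells that is made as they mature. Its levels were -1.25 and -1.29 in STAP-2-/- colons and -0.12 and -0.53 in WT colons, again without overlap. The STAP-2-/- pools differed by 0.04 from each other. The genotype difference of -0.94 (SE 0.20, unadjusted p = 0.00915) was -1.13 in the pools numbered 1 and -0.75 in those numbered 2. A second Adig probe, which was dimmer, read -3.66 and -3.88 in STAP-2-/- colons and -2.90 and -3.31 in WT colons, a difference of -0.66 that ran the same way.

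Fabp4 is the fatty acid-binding protein of adipocytes, macrophages and capillary endothelium. It stood at 3.90 and 3.67 in STAP-2-/- colons and at 4.68 and 4.13 in WT colons. The genotypes did not overlap, but WT 2 lay nearer to STAP-2-/- 1 than to WT 1. Its difference was -0.62 (SE 0.25, unadjusted p = 0.0687), and it was -0.34 without WT 1.

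The 3 lipid-droplet proteins differed in how their arrays were ordered. Plin1, perilipin 1, coats the droplet and holds back lipolysis until it is phosphorylated. Its levels were -0.92 and -2.11 in STAP-2-/- colons and -0.23 and -1.48 in WT colons, so the genotypes overlapped and STAP-2-/- 1 lay above WT 2. The genotype difference was -0.66 (SE 0.63, unadjusted p = 0.355), and within equal numbers it was -0.69 and -0.64. Single arrays moved it widely, to -1.29 without WT 2 and -1.26 without STAP-2-/- 1, and to -0.038 without WT 1 and -0.067 without STAP-2-/- 2.

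Cidec, also called fat-specific protein 27, fuses small droplets into large ones. It stood at 2.05 and 1.29 in STAP-2-/- colons and at 2.53 and 1.37 in WT colons. STAP-2-/- 2 and WT 2 lay side by side at the low end. The difference of -0.28 (SE 0.51, unadjusted p = 0.612) had the opposite sign with single arrays left out, at 0.30 without WT 1 and 0.097 without STAP-2-/- 2. A second Cidec probe gave -1.33 and -2.94 in STAP-2-/- colons and -1.09 and -3.08 in WT colons, a difference of -0.053.

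Cidea, its relative, acts on droplets in brown and beige fat and in lipid-secreting epithelia. Its levels were -2.55 and -2.38 in STAP-2-/- colons and -2.06 and -2.06 in WT colons. The WT arrays differed by 0.003, and both STAP-2-/- arrays lay below them. The difference of -0.40 (SE 0.14, unadjusted p = 0.0446) was one of the smaller ones among the members.

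Among the secreted products, Retn encodes resistin, a cysteine-rich hormone made by mouse white fat. It stood at 1.60 and 0.88 in STAP-2-/- colons and at 2.44 and 2.00 in WT colons. The genotypes did not overlap, and the difference was -0.99 (SE 0.33, unadjusted p = 0.0411), a level 1.98-fold higher in WT colons. Within equal numbers it was -0.85 and -1.12, larger in the pools numbered 2, unlike Scd1 and Adig. The mean difference was -0.62 without STAP-2-/- 2. A second Retn probe read 1.54 and 0.46 in STAP-2-/- colons and 2.31 and 1.72 in WT colons, a difference of -1.02.

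Adipoq encodes adiponectin, an insulin-sensitising hormone made almost exclusively by fat cells. Its levels were 1.83 and 1.20 in STAP-2-/- colons and 2.55 and 1.67 in WT colons. STAP-2-/- 1 lay above WT 2, so the genotypes overlapped. The difference of -0.60 (SE 0.41, unadjusted p = 0.216) was -1.04 without WT 2 and -0.92 without STAP-2-/- 1. It was -0.16 without WT 1 and -0.29 without STAP-2-/- 2.

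Cfd encodes complement factor D, or adipsin, a serine protease of the alternative complement pathway. It stood at 5.09 and 4.45 in STAP-2-/- colons and at 5.74 and 5.16 in WT colons. Both STAP-2-/- arrays lay below both WT arrays, with STAP-2-/- 1 and WT 2 close together. Its difference was -0.68 (SE 0.34, unadjusted p = 0.113), with -0.65 in the pools numbered 1 and -0.71 in those numbered 2. It was -1.01 without STAP-2-/- 1 and -0.97 without WT 2. It was -0.36 without STAP-2-/- 2 and -0.39 without WT 1.

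Lep encodes leptin, the satiety hormone of white fat, and it alone had a higher mean in STAP-2-/- colons. Its probe was spotted 10 times on each array. After flagged spots were left out, 9 spots on STAP-2-/- 1 and 10 on STAP-2-/- 2 gave -5.01 and -5.66, and 9 on WT 1 and 10 on WT 2 gave -4.28 and -6.58. WT pools bracketed the STAP-2-/- pools. On WT 2, 5 of 10 spots were well above background and the SD between spots was 0.43, beside 0.14 on STAP-2-/- 1, 0.18 on STAP-2-/- 2 and 0.098 on WT 1. The difference was 0.09 (SE 0.87, unadjusted p = 0.923), with -0.74 in the pools numbered 1 and 0.92 in those numbered 2. It was 1.24 without WT 1 and -1.06 without WT 2.

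**Figure D2:**
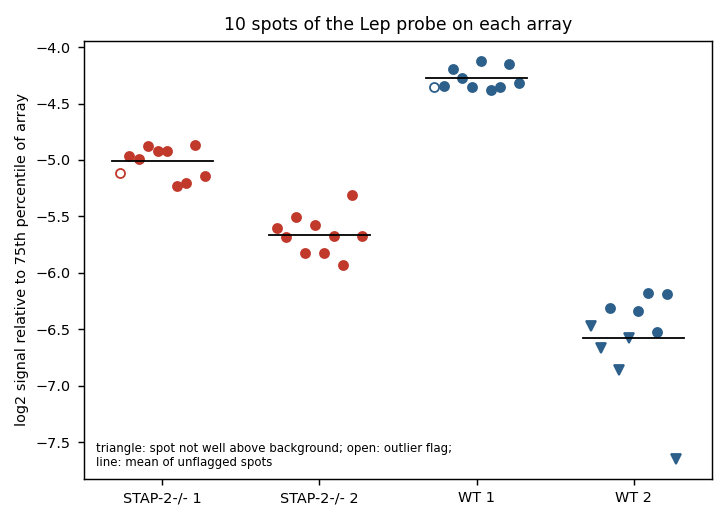
The 10 spots of the Lep probe on each array (vertical axis, log2 relative to the array's 75th percentile), with triangles for spots not well above background, open points for outlier-flagged spots and lines for the mean of unflagged spots. WT 1 has the highest mean, at -4.28, and WT 2 the lowest and the most scattered spots, with 5 of its 10 spots well above background.

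Within pools of equal number, the genotype difference was negative in both numbers for 9 of the 10 genes, all but Lep, beside 29.1% of genes tested. For Cidec this held by its main probe, at -0.079 in the pools numbered 2, while its second probe read 0.14 there. The median over the members was -0.73 for the pools numbered 1 and -0.56 for those numbered 2. WT 1 was the highest of the 4 arrays for all 10 members, beside 20.2% of genes tested. STAP-2-/- 2 was the lowest for 7 members, beside 32.8% of genes tested. The exceptions were Scd1 and Cidea, lowest on STAP-2-/- 1, and Lep, lowest on WT 2. By its second probe, Cidec too was lowest on WT 2.

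**Figure D3:**
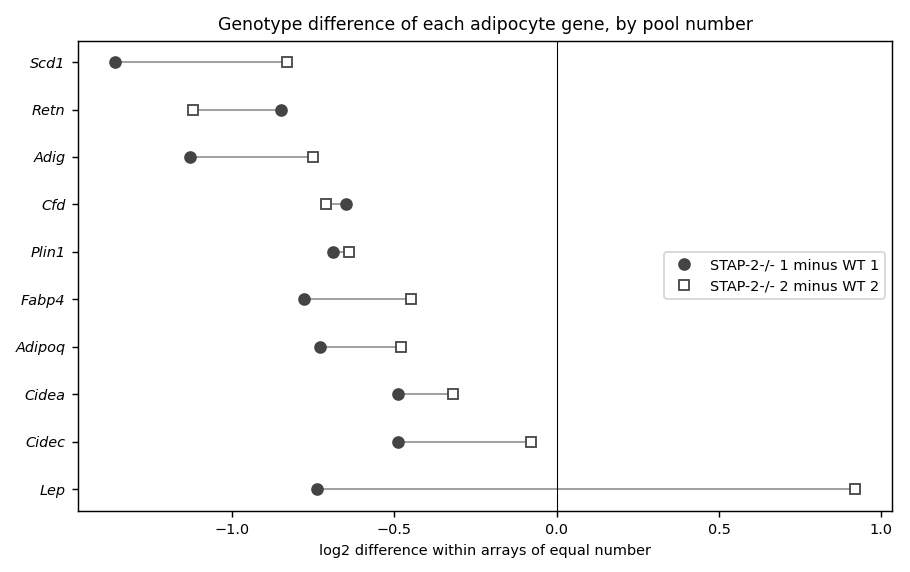
Difference between STAP-2-/- and WT (horizontal axis, log2) for each gene in the pools numbered 1 (filled circles) and numbered 2 (open squares). Only Lep lies on both sides of 0, at -0.74 and 0.92, and Scd1 reaches -1.36.

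The second comparison set pool 1 against pool 2 within each genotype. It has no test, because the labels do not say what a shared number means. Of the 10 members, 9 had a higher mean in the arrays numbered 1, beside 55.1% of genes tested. In 4 members, Plin1, Cidec, Adipoq and Lep, both arrays numbered 1 lay above both arrays numbered 2, beside 36.0% of genes tested. Within both genotypes the array numbered 1 was the higher one for 8 members, all but Scd1 and Cidea, beside 44.1% of genes tested. The median difference, number 1 minus number 2, was 0.60 for the members and 0.041 for all genes tested, with 0.64 in STAP-2-/- pools and 0.57 in WT pools.

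Plin1 was 2.34-fold higher in the pools numbered 1 than in those numbered 2, with 2.29-fold in STAP-2-/- and 2.38-fold in WT colons, so its 2 differences were alike. Cidec was 1.95-fold higher by its main probe, and its second probe differed by 1.61 on the log2 scale in STAP-2-/- colons and by 1.99 in WT colons. Adipoq was 1.69-fold higher. Lep was 1.57-fold higher in STAP-2-/- 1 than in STAP-2-/- 2. No fold is given for Lep in WT colons, since the probe was not well above background on WT 2. Its mean pool difference of 1.47 on the log2 scale rests on that array and was 0.58 with normexp background correction. For Plin1, Cidec and Adipoq the difference between pools of a genotype was wider than the mean difference between genotypes. For Scd1, Adig and Cidea the opposite held, with number differences of 0.084, 0.23 and -0.084 beside genotype differences of -1.10, -0.94 and -0.40. Retn (0.58), Fabp4 (0.39) and Cfd (0.61) also had a number difference smaller in size than their genotype difference. For Lep the number difference of 1.47 was larger than the genotype difference of 0.09, with WT 2 near background.

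**Figure D4:**
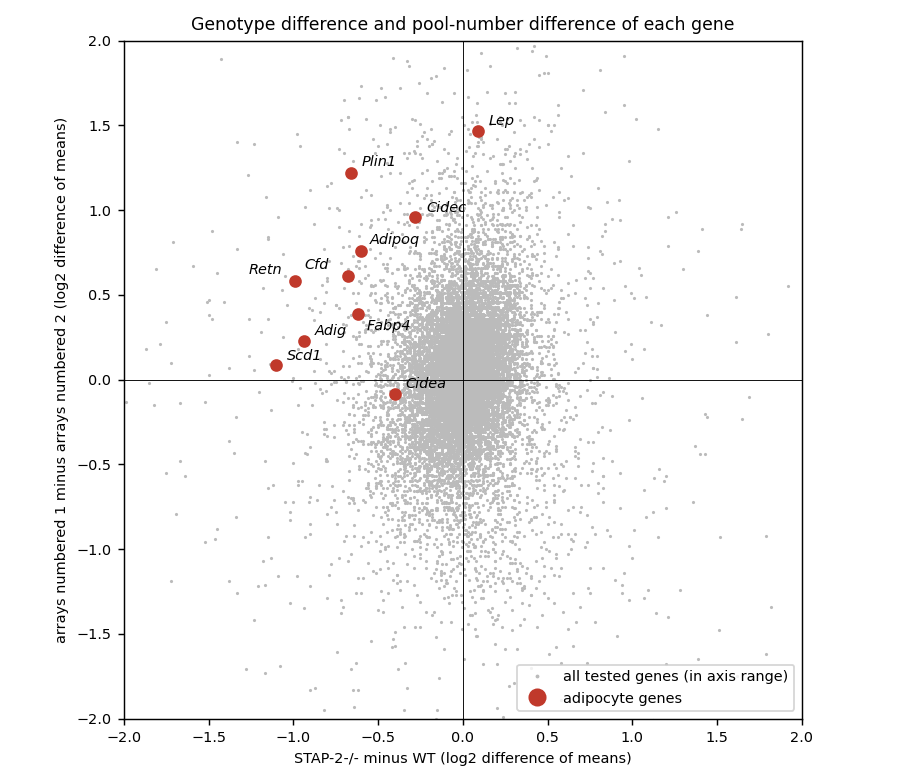
Genotype difference (horizontal axis, STAP-2-/- minus WT, log2) against pool difference (vertical axis, number 1 minus number 2, log2) for the 10 genes (red) and all tested genes within the axes (grey). Scd1 lies farthest left at -1.10 and 0.084, and Lep highest at 0.09 and 1.47, while 8 of the 10 genes lie in the upper left of the plot.

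Likeness among the members was measured as the root mean square distance of a gene's 4 centred levels to the mean profile of the 9 members that were well above background on all arrays. That profile was -0.13 and -0.56 in STAP-2-/- pools and 0.66 and 0.035 in WT pools. Cfd (0.078), Fabp4 (0.087) and Adipoq (0.124) lay nearest to it. Plin1 (0.350), Cidea (0.340) and Scd1 (0.310) lay farthest. Outside the members and the gene lists, the nearest of 14973 candidate genes were A530016L24Rik (0.060), Mia (0.064), Krt23 (0.080), Dcaf12l2 (0.087) and Camk2a (0.088). This ranks likeness over 4 arrays only.

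Genes of fat-cell biology outside the members were read from lists chosen by pathway. In triglyceride storage, uptake and lipolysis, 18 of 26 genes were lower in STAP-2-/- colons (51.7% of genes tested) and 8 higher (median -0.21). Without overlap 5 were lower and 2 higher, beside 13.3% and 11.5% of genes tested. None passed the limma test. Plin5, a droplet coat protein of oxidative tissues, was at -3.72 and -4.06 in STAP-2-/- and -3.35 and -3.20 in WT colons. Adrb3, the adrenergic receptor that starts lipolysis in fat, was at -0.60 and -1.42 in STAP-2-/- and -0.096 and -0.56 in WT colons. Both were without overlap. Between pool numbers, 13 of these 26 genes were higher in number 1 without overlap and 1 was lower, beside 36.0% and 26.4% of genes tested. Lipe, the hormone-sensitive lipase, had a genotype difference of -0.09 and a pool difference of 1.34. Car3, a carbonic anhydrase abundant in white fat, had a genotype difference of -0.61 and a pool difference of 0.85.

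Fatty acid synthesis and desaturation had 10 of 12 genes lower in STAP-2-/- colons, beside 51.7% of genes tested, with a median of -0.15. Within both pool numbers 5 were lower, beside 29.1% of genes tested. The median was -0.27 in the pools numbered 1 and -0.046 in those numbered 2. Without overlap 5 were lower and none higher, beside 13.3% and 11.5% of genes tested. Thrsp, a lipogenic regulator, stood at 0.44 and -0.19 in STAP-2-/- and at 1.0 and 0.75 in WT colons. Elovl6, which lengthens saturated fatty acids, stood at 1.79 and 2.50 in STAP-2-/- and at 2.56 and 2.69 in WT colons. Scd2, the isoenzyme of Scd1, differed by -0.0053. Fads2 had a higher mean in STAP-2-/- colons, a difference of 0.45, and a pool difference of 1.80. Adipogenic transcription factors had 5 of 14 genes lower (51.7% of genes tested) and 9 higher, with a median of 0.10. Without overlap 3 were lower and 3 higher. Pparg, the nuclear receptor that drives fat-cell differentiation, was at 2.75 and 3.63 in STAP-2-/- and at 2.99 and 2.98 in WT colons, without an ordering by genotype. Pparg is also made by colonic epithelium.

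Brown and beige fat genes were 11 tested of 14. Ucp1, Elovl3 and Otop1 were not well above background on any array. Of the 11, 3 were lower (51.7% of genes tested) and 8 higher in STAP-2-/- colons, with a median of 0.013. Without overlap 1 was lower and 2 higher, beside 13.3% and 11.5% of genes tested. Cox8b, a muscle and brown-fat subunit of cytochrome oxidase, was at -1.48 and -1.71 in STAP-2-/- and at -0.80 and -1.09 in WT colons, without overlap. Ppara was higher without overlap, at 1.62 and 1.69 in STAP-2-/- and at 1.41 and 0.94 in WT colons. Other adipokines and receptors (15 tested of 16) had a median of -0.045, and Cmklr1 was not well above background on any array. Itln1, an intelectin called omentin, was at -1.24 and -1.48 in STAP-2-/- colons and at 0.54 and -1.46 in WT colons, so WT 1 alone stood out.

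Markers of the other cells a colon holds were read beside these. All 11 markers of colon epithelium were detected, and 7 of them were higher and 3 lower in number 1 without overlap (median 0.24), beside 36.0% and 26.4% of genes tested. The lower ones were Cdx2 and, named after their values were seen, Car1 and Epcam. The list had summed levels of 760.2 and 640.2 in STAP-2-/- and 722.7 and 625.8 in WT colons. Levels of different probes are not comparable, so the sums here and below weigh a list's brightest probes most and do not measure cell content. By genotype the median of the epithelial markers was -0.057, with 0 of 11 without overlap. The 9 mesothelial markers summed to 4.26 and 2.27 in STAP-2-/- and 3.82 and 3.02 in WT colons, on the linear scale in units of the array's 75th percentile. The sum was higher in the pool numbered 1 of each genotype. By gene, 8 of 9 mesothelial markers were higher in number 1 without overlap and 1 was lower (median 0.51), among them Msln and Upk3b at 0.84 and 0.82. By genotype, 7 of 9 were lower in STAP-2-/- colons (median -0.20), 0 of them without overlap. Their part in the result was not tested.

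Endothelial markers were lower in STAP-2-/- colons in 10 of 13 (51.7% of genes tested), with a median of -0.18. Without overlap 5 were lower and 0 higher, beside 13.3% and 11.5% of genes tested. Within both pool numbers 6 were lower, beside 29.1% of genes tested. The median was -0.22 in the pools numbered 1 and -0.063 in those numbered 2. The endothelial levels summed to 7.22 and 6.88 in STAP-2-/- and 8.23 and 7.45 in WT colons. Gpihbp1, the capillary protein that carries lipoprotein lipase, differed by -0.20. Macrophage markers ran the other way, higher in 7 of 10 (median 0.10), with 3 higher and 0 lower without overlap beside 11.5% and 13.3% of genes tested, and summed to 15.0 and 16.8 in STAP-2-/- and 14.5 and 14.9 in WT colons. Skeletal muscle markers summed to 2.56 and 2.38 in STAP-2-/- and 2.48 and 2.35 in WT colons, and skin and sebaceous markers to 1.91 and 1.55 in STAP-2-/- and 1.74 and 1.61 in WT colons. The muscle sum mostly follows its brightest probe, Acta1, named after its values were seen. It stood at 0.85 and 0.86 in STAP-2-/- and at 0.81 and 0.83 in WT colons. Between pool numbers, 4 of 8 muscle genes and 3 of 6 skin genes tested were higher in number 1 without overlap and 0 lower. Of all genes tested, 36.0% were higher and 26.4% lower in this way. The medians of the muscle and skin genes were 0.26 and 0.28. Myh2, a fast myosin heavy chain, stood at -2.48 and -6.22 in STAP-2-/- and at -2.29 and -4.27 in WT colons, a pool difference of 2.86, which the muscle sum does not show. Of these lists, Myh1, Myh4 and Mylpf of muscle and Krt1, Awat1, Elovl3 and Dgat2l6 of skin were not well above background on any array. The part of these cells in the result was not tested.

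Markers of adipose progenitors and fibroblasts had a lower mean in STAP-2-/- colons in all 11 tested, with a median of -0.16 and differences as small as -0.011. Of the 11, 3 were lower without overlap, beside 13.3% of genes tested. Within both pool numbers 7 were lower, beside 29.1% of genes tested. Dlk1, an inhibitor of fat-cell differentiation, stood at -3.28 and -1.76 in STAP-2-/- and at -0.048 and -0.28 in WT colons, a difference of -2.36 (SE 0.57). Fgf10, a growth factor of fat-cell precursors, stood at -2.97 and -2.88 in STAP-2-/- and at -2.13 and -2.16 in WT colons, a difference of -0.78 (SE 0.13). Neither passed the test. Between pool numbers the list was mixed, with 8 of 11 genes lower and 3 higher in number 1 (median -0.17). Of all genes tested, 55.1% were higher. Without overlap 5 were lower and 3 higher, beside 26.4% and 36.0% of genes tested. The pool difference was -0.85 for Pdgfra and 1.06 for Pi16.

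**Figure D5:**
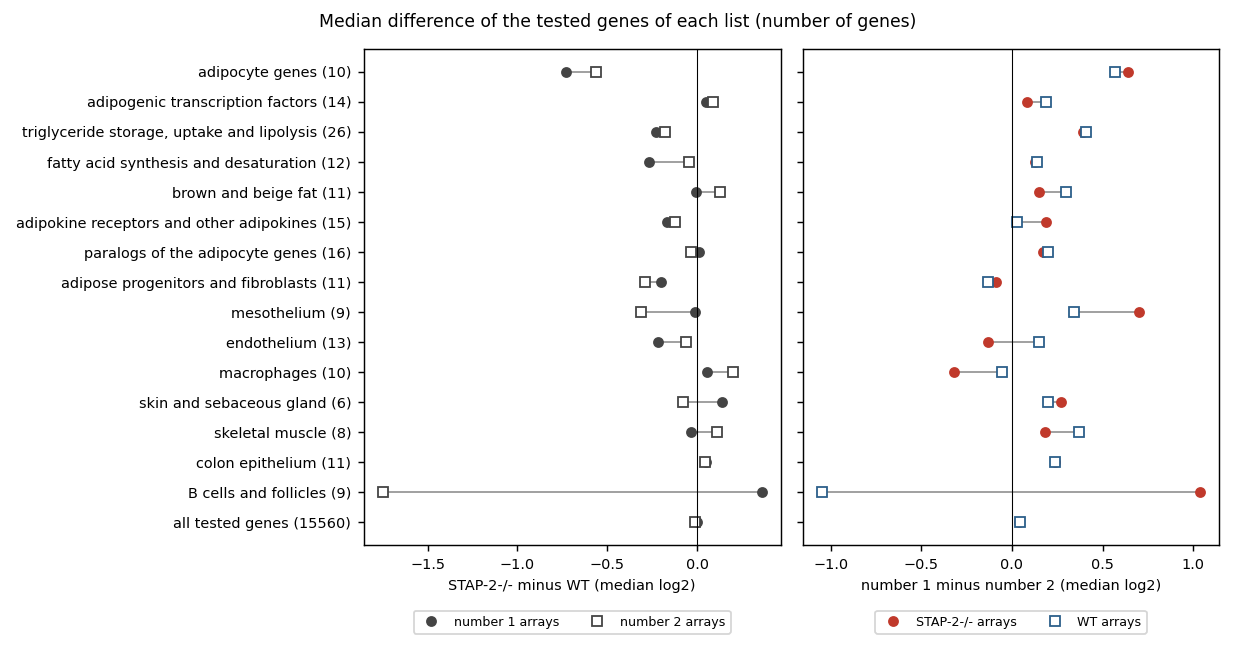
Median log2 difference over the tested genes of each list: on the left STAP-2-/- minus WT, for the arrays numbered 1 (circles) and numbered 2 (squares), and on the right number 1 minus number 2, for STAP-2-/- (circles) and WT (squares). The 10 adipocyte genes stand at -0.73 and -0.56 on the left and at 0.64 and 0.57 on the right, and the B cell list at 0.36 and -1.75 on the left.

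The list of B cell and follicle markers had a median genotype difference of -0.70, close in size to that of the members, but it was 0.36 in the pools numbered 1 and -1.75 in those numbered 2. Its summed level was 2.01 and 1.07 in STAP-2-/- and 1.46 and 2.88 in WT colons. The median of the members was negative in both.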

How the data were processed

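Whole-colon RNA pools of 3 mice were measured on 4 arrays, 1 per pool. Per the file headers, each deposited scanner file gives a spot's processed signal intensity with the background already subtracted and with no scaling between arrays. It was made with Agilent Feature Extraction 10.7.1.1 per the submitters' processing notes. A deposited value table gives a ratio for every probe, with column medians of 0.091 and 0.084 for STAP-2-/- 1 and 2 and 0.090 and 0.087 for WT 1 and 2. The ratio was checked on 9721 to 9726 probes per array, those spotted once and with a ratio of 1 or more. It equalled the processed signal over a constant per array within 1% for 100.0% of them. Dimmer and repeatedly spotted probes were not checked. The value table was used as an alternative.

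Control spots were left out and outlier-flagged spots set missing. Log2 signals minus the array's 75th percentile were averaged per probe. Of 39429 probes, 27427 were named through RefSeq (GRCm38.p6), giving 20832 genes, and 15560 were tested, where 1 genotype or both had the probe well above background on each of its arrays. The array annotation uses another build. Genotypes were compared with limma 3.58.1 in R 4.3.3 (lmFit, eBayes, Benjamini-Hochberg adjustment, no covariate). The fit was also run on simulated data, with independent arrays and differences larger than those of the members. That run does not show whether differences of the members' size would be found. Pool numbers were described without a test. Counts of groups without overlap are over the 15549 tested genes with a value on every array. All 4 arrays shared 1 slide and 1 scan, so neither was tested as a batch, and 2 arrays per genotype limit the precision.

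The members and lists were chosen with earlier results of these data known. Of 182 list symbols in 14 lists, 178 were on the array. Named genes are the 10 members, Stap2, up to 3 genes per list and contrast with the largest difference among those above background on every array, and the 5 genes nearest the members' mean profile. Markers not above background on any array are named too. Alternatives were quantile and median scaling, the percentile over probes detected on every array, the value table, normexp with offset 50 on the median spot intensity deposited by the authors, flagged spots kept, the mean of a gene's probes, other filters on dim probes, an intensity trend with robust fit, the replicate block, and leaving out each array. Reading and drawing used matplotlib 3.10.9, pandas 2.3.3, numpy 2.4.6 and Python 3.11.15.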

Additional observations from a re-analysis of the deposited data

Results flagged for a closer look

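Between the pools numbered 1 and 2, Lep had opposite genotype differences: -0.74 for STAP-2-/- 1 minus WT 1 and 0.92 for STAP-2-/- 2 minus WT 2 on the log2 scale. Each number has 1 array per genotype, and the difference between the numbers was not tested. The WT 2 value rests on a probe of which 5 of 10 spots were well above background.

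Between genotypes, Scd1 had opposite pool differences, -0.18 for STAP-2-/- 1 minus STAP-2-/- 2 and 0.35 for WT 1 minus WT 2. Cidea did so too, with -0.17 for STAP-2-/- 1 minus STAP-2-/- 2 and 0.003 for WT 1 minus WT 2. Neither difference between genotypes was tested, and the Cidea value in WT is close to 0.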

How the results depend on the processing

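Over 7 settings that recompute the values, 69 of 70 genotype differences of the members kept their sign, the exception being Lep at -0.073 with normexp. The median stayed between -0.66 and -0.60, and 6 members were lower without overlap in each of the settings run for that count. Of 70 recomputed pool differences, 69 kept their sign, the exception being Scd1 at -0.01 with median scaling. The other filters on dim probes, the intensity trend and the block leave these differences as they are and bear only on the test. No setting gave a member an adjusted p under 0.05 in limma. With normexp, 1 gene passed (Stap2), beside 268 at an unadjusted p under 0.05.

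With 1 array left out, 36 of 40 genotype differences kept their sign. The median ranged from -1.05 (without WT 2) to -0.37 (without WT 1). The members lower without overlap ranged from 6 to 10, a count that can only stay or rise when an array is left out. Cidec ranged from -0.87 to 0.30 and Lep from -1.06 to 1.24. Other members kept a negative sign. The Lep pool difference was 0.58 with normexp and that of Cidec 1.38 with the mean of its probes.

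The pools share only a number, and the deviations of arrays of equal number from their genotype means had a correlation of 0.596. With the replicate number as a block, limma called 0 genes, with 641 lower and 400 higher at an unadjusted p under 0.05. Without the block these were 202 and 124 of the 15560 genes tested, so such calls rose over all genes and not only among the members. Of the members, 8 had an unadjusted p under 0.05 with the block, against 4 without it, and the lowest adjusted p of a member was 0.699. With 2 arrays per genotype and Lep near background, the signs for Lep and Cidec depend on single arrays.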

Other observations

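Among paralogs of the members, Retnlb, a resistin-like molecule of goblet cells, stood at 0.057 and 3.19 in STAP-2-/- colons and at 3.96 and 4.49 in WT colons, a difference of -2.61 (SE 1.14, unadjusted p = 0.0869 in limma). STAP-2-/- 1 was far below the other 3 arrays, unlike Retn, which was lowest on STAP-2-/- 2. Fabp6, the ileal bile acid-binding protein, stood at 0.74 and 2.06 in STAP-2-/- colons and at -0.024 and 0.098 in WT colons, a difference of 1.36, opposite in sign to Fabp4. Neither passed the limma test. Over the 16 paralogs, 8 were lower and 8 higher in STAP-2-/- colons, with a median of 0.018.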
